A study of Mus musculus with 12 samples.

Results

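The 10 BCL2 family genes described here are the survival genes Mcl1, Bcl2, Bcl2l1 and Bcl2l2, the pore-forming death genes Bax and Bak1, and the BH3-only death genes Bcl2l11, Bbc3, Bid and Bad. They are 10 of 21896 protein-coding genes with a span in the RefSeq table. The listed m6A peaks that overlap those 10 spans were taken, 53 of 118075 peaks in all. The family was chosen by its measured peaks: Mcl1 had been seen to hold peaks in the lists of one cell type alone, so the comparison of cell types below is a description with no test. All 10 genes held a peak in at least 1 list, as did 13188 protein-coding genes in all.

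m6A, methylated adenosine within mRNA, was mapped here by antibody pull-down (IP) of fragmented poly(A) RNA from mouse cells. The 3 SSC libraries come from spermatogonial stem cells, the germline stem cells of the testis, grown on inactivated STO fibroblast feeders with serum, LIF, EGF, GDNF and basic FGF at 10 ng/mL. The 3 iNSC libraries come from neural stem cell-like cells made from such cultures with 1 µM retinoic acid for 24 h and then a neural medium with 10 µM SB431542, which blocks TGF-β receptor kinases, and 20 ng/mL basic FGF. The labels give no strain, age or number of animals and no separate cultures for the replicates. The 6 inputs were not analysed here. Titles and source names set the groups, although another field of each sample's labels, its cell type, names the opposite one. Among 5 germ cell markers, SSC libraries listed 5, 4 and 4 and iNSC libraries 0 each, with 5, 5 and 3 SSC peaks in Ddx4. Among 3 neural stem cell markers, every library listed 2, so their number did not separate the groups. Pax6 was listed in iNSCs alone (3, 4 and 4 peaks), Sox2 in SSCs alone (1 peak per library) and Nes in all 6 lists. Of 4 fibroblast markers, SSC libraries listed 2, 1 and 4 and iNSC libraries 2, 2 and 3, and the part of feeder RNA in the results was not tested. SSC lists held 19728 to 27597 peaks and iNSC lists 13913 to 16060. A peak needs a transcript as well as its methylation, so that less methylation, less RNA per cell and fewer cells of a type cannot be told apart.

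BCL2 proteins decide whether the outer mitochondrial membrane stays closed. MCL1, BCL2, BCL-XL (from Bcl2l1) and BCL-W (from Bcl2l2) keep cells alive by holding their death-promoting relatives in check. BAX and BAK form pores that release cytochrome c, and BIM (from Bcl2l11), PUMA (from Bbc3), BID and BAD set them free or activate them. In the testis and in the developing nervous system this balance sets how many germ cells and neural cells survive, and MCL1 is known for its short life as a protein and as an mRNA.

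At 3 of the genes a peak edge lay exactly on a transcription start listed by RefSeq in at least 2 lists. The sequence around those starts is printed below. Whether the methylation signal begins at such an edge was not tested. Each run reads 5′ to 3′ on the strand of the gene, build GRCm38.p6, from RefSeq, with the 250 bases before the start in lower case and the first 30 bases inside the peak in capitals.
Mcl1, chr3:95658471-95658750, plus strand: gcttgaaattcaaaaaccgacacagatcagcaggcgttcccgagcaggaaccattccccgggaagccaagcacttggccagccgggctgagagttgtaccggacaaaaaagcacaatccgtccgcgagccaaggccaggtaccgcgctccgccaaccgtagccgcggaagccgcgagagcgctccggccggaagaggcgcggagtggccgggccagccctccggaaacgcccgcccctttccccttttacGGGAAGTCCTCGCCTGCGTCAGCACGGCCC
Bcl2, chr1:106714261-106714540, minus strand: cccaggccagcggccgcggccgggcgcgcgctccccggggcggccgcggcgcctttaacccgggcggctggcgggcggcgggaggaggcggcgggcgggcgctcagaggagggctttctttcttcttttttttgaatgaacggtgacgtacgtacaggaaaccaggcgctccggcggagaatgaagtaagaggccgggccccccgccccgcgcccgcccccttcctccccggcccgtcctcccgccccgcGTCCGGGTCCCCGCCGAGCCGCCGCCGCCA
Bbc3, chr7:16309333-16309612, plus strand: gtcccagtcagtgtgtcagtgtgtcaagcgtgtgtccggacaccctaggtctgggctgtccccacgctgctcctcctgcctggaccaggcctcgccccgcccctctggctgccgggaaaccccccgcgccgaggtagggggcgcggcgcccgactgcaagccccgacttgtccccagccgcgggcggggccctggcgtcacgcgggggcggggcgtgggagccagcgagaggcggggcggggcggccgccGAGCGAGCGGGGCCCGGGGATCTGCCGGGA
The Mcl1 edge was shared by iNSC replicates 2 and 3, the Bcl2 edge by SSC replicates 1 and 3 and all 3 iNSC lists, and the Bbc3 edge by SSC replicate 3 and iNSC replicate 3. Single SSC lists put an edge on a listed start of Bad and of Bcl2l1 as well. The 250 bases before the start were 64.4% G or C for Mcl1, 74.8% for Bcl2, 76.4% for Bbc3, 62.8% for Bad and 47.6% for Bcl2l1, against a median of 55.6% over 21262 start windows of protein-coding genes. Per list such an edge was found in 1 of 8, 2 of 4 and 2 of 8 members with a peak in SSCs and in 1 of 4, 2 of 6 and 3 of 6 in iNSCs. Across all genes with a peak and a listed start it was found in 10.0% to 18.3% per list. The letters GGAC, a form of the m6A motif searched on the transcribed strand alone, were absent from the first 50 transcribed bases at these starts of Mcl1, Bcl2, Bcl2l1 and Bbc3 and present once at that of Bad, and 20.0% of the 21262 windows held them there.

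Mcl1, the survival gene that holds BAK1 and BIM in check, was the member with peaks in iNSCs alone. Its span lies on chromosome 3 from 95656944 to 95663179. The iNSC lists held 1, 2 and 2 peaks in it and the 3 SSC lists held none. A gene was called iNSC-only when all 3 iNSC lists and no SSC list had a peak, and SSC-only in the reverse case. Mcl1 was the 1 member called iNSC-only, against 2.16% of the 13188 genes with a peak, and since Mcl1 led to the choice of the family nothing is read from that count. No member was called SSC-only, against 11.3% of genes with a peak.

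Both Mcl1 regions had the same edges wherever they were listed. The longer peak ran from 95660707 to 95663178 in all 3 iNSC lists, 2472 bases that stop 1 base before the end of the gene span. The shorter peak ran from 95658721 to 95659487 in iNSC replicates 2 and 3, 767 bases from the transcription start printed above, and iNSC replicate 1 did not list it. Identical edges in the 3 lists of a cell type were common, at 42.1% to 48.6% of iNSC peaks and 19.3% to 27.0% of SSC peaks. The 2 peaks together covered 2472, 3239 and 3239 bases in the iNSC lists (2983 ± 443, SD, n = 3). In listed bases the replicates thus differed by the start peak alone, and the lists do not show differences in strength.

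All 5 Mcl1 peaks stood at the capped score. The score per peak is the authors' own, has no stated unit and ends in a pile of equal values at 3100, so it is used only to rank peaks within a list. With ties at their mean rank, a capped peak has a percentile of 92.3, 90.9 or 91.8 in the 3 iNSC lists. A best peak at the cap in all 3 iNSC lists was found for 1432 genes, and 16 of them (1.12%) had no peak in any SSC list, Mcl1 among them. Those 16 made up 5.61% of the 285 genes called iNSC-only. These counts describe the pattern for which Mcl1 was chosen and support nothing further.

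**Figure D1:**
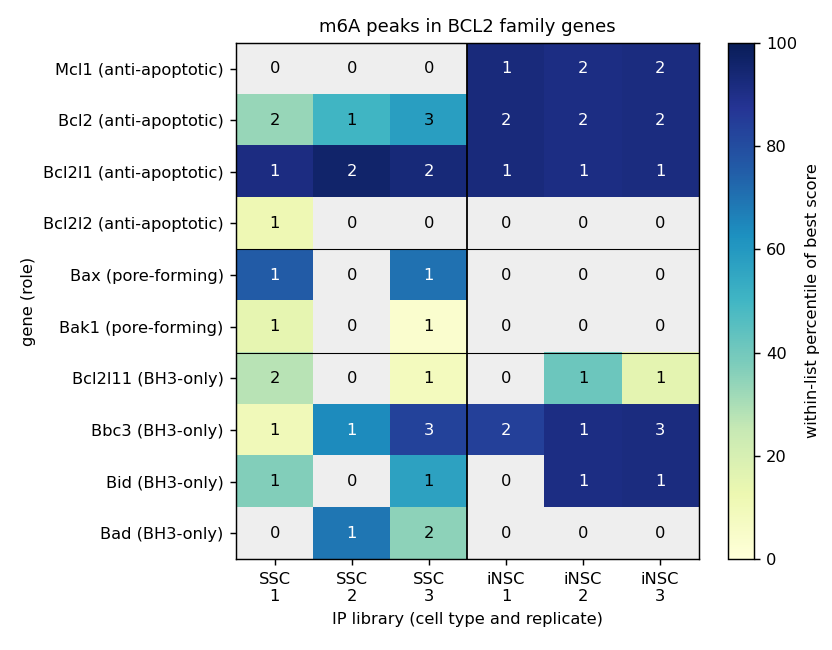
Number of listed peaks (digits) and within-list percentile of the best score (colour, grey for no peak) for the 10 genes in each IP library. Mcl1 is filled in the 3 iNSC columns alone, Bcl2l1 is dark in all 6, and Bcl2l2, Bax, Bak1 and Bad are filled in SSC columns alone.

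Bcl2, the founding survival gene of the family, held peaks in all 6 lists, as 30.1% of genes with a peak did. Its span of 176115 bases lies on chromosome 1 from 106538176 to 106714290, and its peaks sat near both ends with none between. The SSC lists held 2, 1 and 3 peaks and the iNSC lists 2 each. Peak bases were 1234, 1369 and 2058 in SSCs and 4320, 3957 and 4051 in iNSCs. Every iNSC list was above every SSC list, with means of 1554 ± 442 and 4109 ± 188 bases (SD, n = 3 each), a ratio of 2.64.

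The start region of Bcl2, from 106711816 to 106714290, was listed as 1 unbroken peak in each iNSC list and in pieces or in part in the SSC lists. The iNSC peaks were 2475, 2216 and 2141 bases long and began on the first base of the gene. SSC replicate 1 listed pieces of 309 and 925 bases, SSC replicate 2 a single peak of 1369 bases that began 748 bases into the gene, and SSC replicate 3 pieces of 901 and 866 bases. Best percentiles in that region were 33.2, 50.1 and 56.9 in SSCs and 76.2, 90.9 and 91.8 in iNSCs, without overlap. Of the 8 Bcl2 peaks there, 5 shared the edge at 106714290.

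Near the far end of Bcl2 a second region, from 106541489 to 106543398, was listed by all 3 iNSC libraries and by SSC replicate 3. The iNSC peaks covered 1845, 1741 and 1910 bases with a common upstream edge at 106543398. The SSC peak covered 291 bases inside that stretch. Percentiles were 92.3, 82.1 and 79.8 in the iNSC lists and 57.8 in SSC replicate 3. The region ends 3313 bases before the end of the RefSeq span, so the gene's last bases held no listed peak.

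Bcl2l1, which encodes the survival protein BCL-XL, had the most even mean peak bases among the 3 members with a peak in all 6 lists. A region on chromosome 2 from 152828853 to 152830102 was listed in all 6 lists, and all 6 peaks shared the upstream edge at 152830102. The peaks were 874, 1237 and 795 bases long in SSCs and 1250, 945 and 1237 bases in iNSCs, which overlap. Percentiles were 91.2, 96.1 and 93.1 in SSCs and 92.3, 90.9 and 91.8 in iNSCs, where the capped score sets the iNSC values and the SSC replicate 2 value. Peak bases per list averaged 1042 ± 278 and 1144 ± 172 (SD, n = 3 each), a ratio of 1.10. Besides it, SSC replicate 2 listed a peak of 126 bases with its edge on a listed start (percentile 8.73), and SSC replicate 3 a peak of 94 bases near the end of the gene (percentile 18.6), where the span also overlaps Cox4i2.

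Bcl2l2, the gene of the survival protein BCL-W, which is needed for sperm production in mice, had a single peak. SSC replicate 1 listed 546 bases on chromosome 14 from 54885238 to 54885783, at a score of 63.42 and a percentile of 11.6. The other 5 lists held none. Among the survival genes, then, Mcl1 and Bcl2 had more peak bases in every iNSC list than in any SSC list. Bcl2l1 overlapped, and Bcl2l2 rested on 1 weak peak. Mcl1 was chosen for its lack of SSC peaks, and the share of all genes separated in this way was not computed. Nothing is therefore read from that separation.

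**Figure D2:**
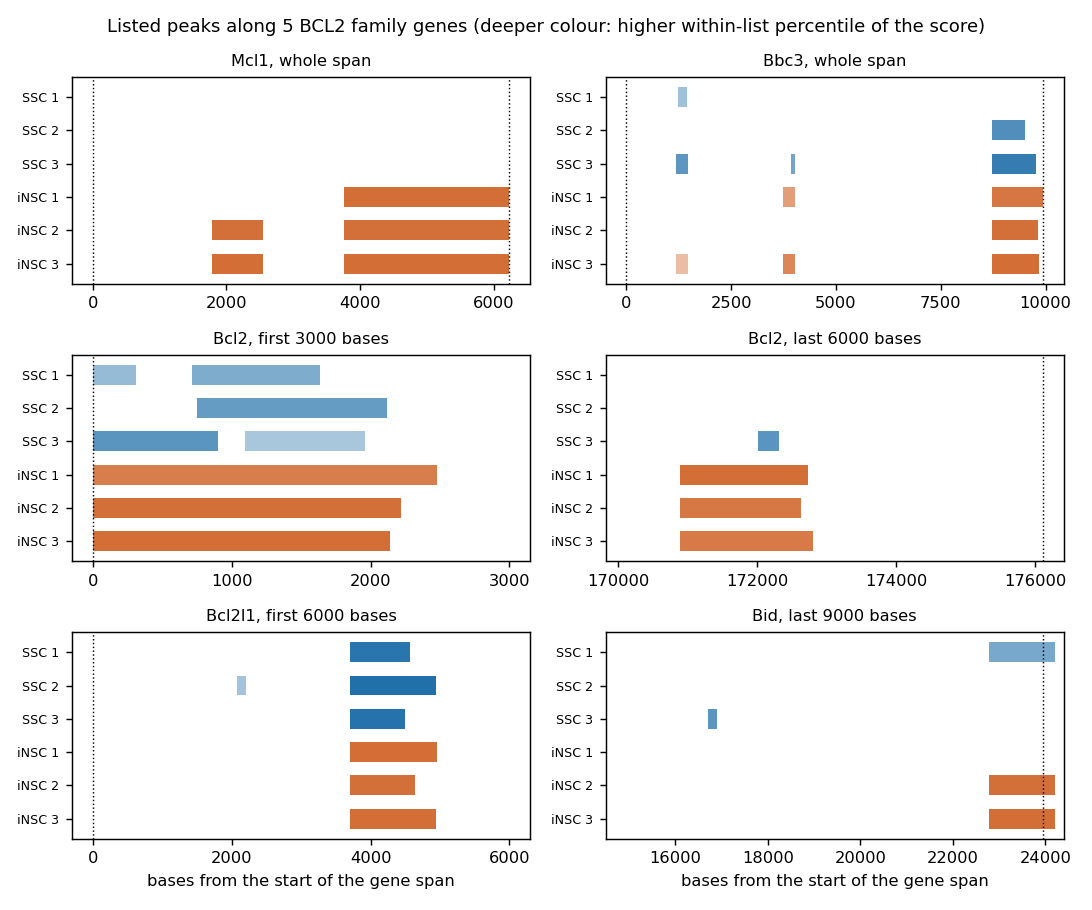
Listed peaks (bars, 1 row per library, SSC blue and iNSC orange) by distance in bases from the start of the RefSeq span of 5 genes, with dotted lines at the span's ends and deeper colour for a higher within-list percentile. Mcl1 bars have equal edges in the iNSC rows, the Bcl2 start is 1 long bar per iNSC row, and Bcl2l1 bars begin at the same base in all 6 rows.

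The pore-forming genes had peaks in SSC lists alone, short of a call. Bax, which moves to mitochondria when cells are stressed, had the same peak of 556 bases in SSC replicates 1 and 3, on chromosome 7 from 45466220 to 45466775. Its percentiles were 75.5 and 70.1, and SSC replicate 2 and all iNSC lists had none. Bak1, its relative that resides on mitochondria, had a peak of 136 bases in SSC replicate 1 (percentile 14.5) and another of 32 bases in SSC replicate 3 (percentile 3.26). These Bak1 peaks did not overlap each other, and its whole span lies inside that of Ggnbp1, so they were placed by strand alone. Bax, Bak1 and Bad each had a peak in 2 SSC lists and no iNSC list and lay just outside the call. They are 3 of 10 members, and 22.6% of genes with a peak were SSC-only when 2 of 3 SSC lists were enough, so nothing is read from that count.

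Among the BH3-only genes, Bbc3, the p53 target that encodes PUMA, had peaks in all 6 lists, 1, 1 and 3 in SSCs and 2, 1 and 3 in iNSCs. Its end region on chromosome 7 from 16317118 to 16318334 was listed by SSC replicates 2 and 3 and by all iNSC lists, and all 5 peaks began at 16317118. They were 785 and 1054 bases long in SSCs and 1217, 1100 and 1119 bases in iNSCs. Percentiles were 64.0 and 82.8 in SSCs and 83.8, 90.9 and 91.8 in iNSCs, again without overlap. Only the iNSC replicate 1 peak reached the last base of the span.

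Bbc3 had shorter regions upstream of that. One at the start printed above, from 16309583 to 16309861, was listed by SSC replicates 1 and 3 and iNSC replicate 3 at percentiles of 9.81, 55.7 and 11.9. Another, from 16312126 to 16312414, was listed by SSC replicate 3 (100 bases, percentile 40.5) and by iNSC replicates 1 and 3 (289 bases each, percentiles 43.6 and 66.4). Total Bbc3 peak bases were 200, 785 and 1433 in SSCs and 1506, 1100 and 1687 in iNSCs, which overlap, with means of 806 ± 617 and 1431 ± 301 (SD, n = 3 each).

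Bid, which links death receptors to mitochondria, had a region of fixed shape. It ran from 120892854 to 120894292 on chromosome 6 in SSC replicate 1 and in iNSC replicates 2 and 3, 1439 bases with identical edges, and went 265 bases past the end of the RefSeq span. Its percentile was 37.0 in SSC replicate 1 and 90.9 and 91.8 in the iNSC lists, where it stood at the cap. iNSC replicate 1 listed nothing in Bid, and SSC replicate 3 listed a different peak of 211 bases (percentile 56.8). The lists of 1 cell type thus disagreed with each other on Bid.

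Bcl2l11, which encodes BIM, a sensor of lost growth factor support, also split the replicates. A region on chromosome 2 from 128158231 to 128158959 was listed by SSC replicate 1 (722 bases, percentile 27.6) and by iNSC replicates 2 and 3 (457 and 652 bases, percentiles 41.1 and 15.6). SSC replicate 1 added a peak of 290 bases and SSC replicate 3 one of 467 bases elsewhere in the gene, at percentiles of 22.6 and 8.44. Neither SSC replicate 2 nor iNSC replicate 1 had a peak in it.

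Bad, whose protein is silenced by growth factor kinases, had peaks in 2 SSC lists and in no iNSC list. SSC replicate 2 listed 580 bases from the first base of the gene, on chromosome 19 from 6941861 to 6942440, at a percentile of 68.8. SSC replicate 3 listed 180 and 604 bases elsewhere, at percentiles of 25.5 and 34.8, so that no base of Bad was shared by both lists. A peak in SSC replicate 1 that overlaps the SSC replicate 2 peak, from 6942101 to 6942450, was on the other strand and was placed in the neighbouring gene Gpr137.

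Counted over the family, SSC libraries had peaks in 8, 4 and 8 of the 10 genes (6.67 ± 2.31, SD, n = 3) and iNSC libraries in 4, 6 and 6 (5.33 ± 1.15). These ranges overlap. All protein-coding genes had a peak in 42.6% ± 4.64 and 31.0% ± 1.31 of cases. The genes held 10, 5 and 14 peaks in SSC lists and 6, 8 and 10 in iNSC lists. The low SSC value is that of replicate 2, the shortest SSC list, and the low iNSC value that of replicate 1, the shortest of all. However, iNSC replicates 2 and 3 had shorter lists than SSC replicate 2 and peaks in more members. The part of list length was not tested.

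Peaks in the family covered 5997, 4097 and 6430 bases in SSCs and 9548, 11137 and 12305 in iNSCs, which do not overlap. The means were 5508 ± 1241 and 10997 ± 1384 bases (SD, n = 3 each), a ratio of 2.00, against 1.16 for all listed bases (9814 and 11402 kb). Without Mcl1 the iNSC mean was 8013 ± 1000 bases and the ratio 1.45. Bcl2 held 1554 of these bases in SSCs and 4109 in iNSCs, a gap that covers the whole difference left without Mcl1. Bcl2l1, Bbc3 and Bid also had higher means in iNSCs, and Bcl2l2, Bax, Bak1, Bcl2l11 and Bad had higher means in SSCs. The excess was thus not shared by the family. At the cap stood 15 of the 24 iNSC peaks and 1 of the 29 SSC peaks, and without Mcl1 10 of 19 iNSC peaks. Over whole lists 16.2% ± 1.34 and 5.26% ± 2.03 of peaks were there.

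The 53 peaks merged into 22 regions, all on the strand of their gene. Of these, 8 were listed in both cell types, 2 in iNSC lists alone, both in Mcl1, and 12 in SSC lists alone. Single SSC lists accounted for 11 of the 12, and the Bax region was the other. Only the main Bcl2l1 region and the Bcl2 start region were listed 6 times of 6. In the 8 regions of both cell types, mean peak bases were taken over the lists that held a peak there. They were greater in iNSCs for 6 and equal for 1 (Bid, 1 SSC list against 2 iNSC lists). In 5 regions every iNSC percentile was above every SSC percentile, and in 2 the highest SSC percentile was above every iNSC percentile. The main Bcl2l1 region is among the 2, but its highest SSC peak and all its iNSC peaks stood at the cap. That order thus reflects only the share of each list at the cap. Of the 5, Bid, the far Bcl2 region and the Bbc3 region from 16312126 rest on 1 SSC list each. The share over all regions was not computed, so nothing is read from these counts. Peaks were wider in iNSC lists in general, with median widths of 399 ± 32.6 and 200.0 ± 6.24 bases, and the part of list depth or width in these differences was not tested.

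**Figure D3:**
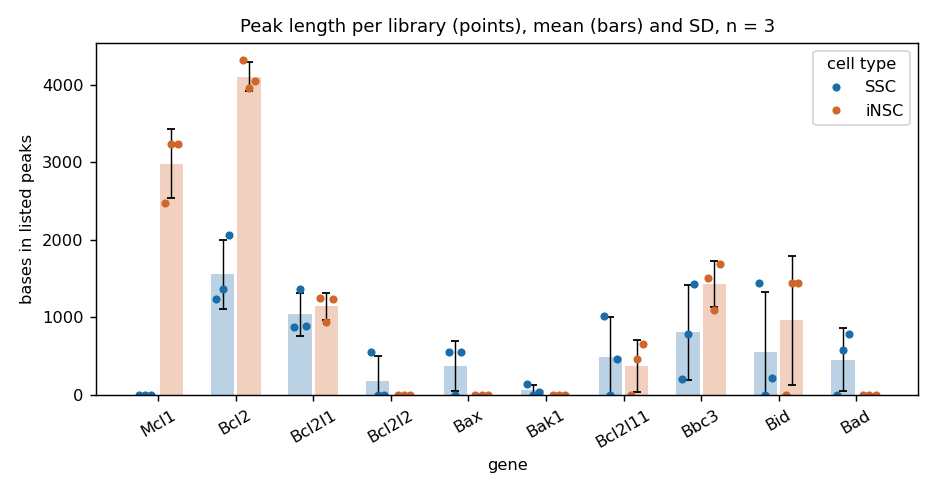
Bases in listed peaks per gene, with 1 point per library, bars for the mean and error bars for the SD (n = 3 SSC in blue, n = 3 iNSC in orange). The iNSC points lie above all SSC points for Mcl1 and Bcl2, and the groups overlap for Bcl2l1, Bcl2l11, Bbc3 and Bid. The share of all genes separated in this way was not computed.

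In 54 other genes of the apoptosis pathway, 40 had a peak in some list, and 3 were called for 1 cell type. A peak was found in 30, 24 and 32 of them in SSCs and in 23, 23 and 24 in iNSCs. Of all protein-coding genes, 13188 of 21896 had a peak in some list, with means of 42.6% per SSC list and 31.0% per iNSC list. Called SSC-only were 2, the flavoprotein gene Aifm1 (4, 2 and 3 peaks) and the death receptor gene Tnfrsf10b (2, 1 and 2 peaks). Bcl2l15, a BCL2 relative, was called iNSC-only with 1, 3 and 1 peaks at best percentiles of 41.0, 40.4 and 53.6. As shares of the 40 these 3 calls have the backgrounds of 11.3% and 2.16% given above, and all 6 lists held a peak in 12 of the 40, against 30.1%.

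Of the other 4 BH3-only genes, 3 had a peak in some list, all in SSCs alone, a pattern that 40.4% of genes with a peak had. Bmf, Hrk and Pmaip1, which encodes NOXA, the partner that binds MCL1, each had a peak in 2 SSC lists and no iNSC list, and Bik had none anywhere. Of the other survival relatives, Bcl2l10, Bcl2a1a and Bcl2a1b had no peak and Bcl2a1d had 1 in SSC replicate 2. The Bcl2a1 genes are near-identical copies that can share reads, so they are uncertain. Bok, a pore-forming relative of Bax and Bak1, had no peak.

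Of 6 genes of MCL1 protein turnover, 5 had a peak in some list and 4 had peaks in all 6, against 30.1% of genes with a peak. Usp13 had a peak in 2 SSC lists and no iNSC list, and Trim17 had none anywhere. Fbxw7, a ubiquitin ligase subunit, had 4, 4 and 4 peaks in SSCs and 5, 6 and 7 in iNSCs, and Usp9x, a deubiquitinase that spares MCL1, had 5, 8 and 5 against 3, 5 and 3. Their best peaks were at or near the cap, with no percentile under 90.9. Of 4 genes of p53 control, 3 had peaks in all 6 lists, among them Mdm4 (4, 4 and 1 against 2, 3 and 3 peaks) and Ppm1d (1, 1 and 3 against 3 each). Trp53 itself had none.

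Downstream of mitochondria, 6 of 7 genes of the apoptosome and caspase group had a peak, and 0 had one in all 6 lists. Of all genes with a peak 30.1% had one in all 6 lists, and with so few genes nothing is read from the count. Apaf1, the apoptosome scaffold, had 3 peaks in SSC replicate 1 alone, and Casp9 had 1, 2 and 1 in SSCs and 0, 1 and 1 in iNSCs. Of the inhibitors of apoptosis, Xiap had 4, 1 and 2 peaks against 3 each and Birc6, an enzyme of very large size, 12, 1 and 3 against 5, 9 and 3. In the death receptor arm, Cflar, the decoy of caspase 8, had 8, 3 and 4 peaks against 2, 3 and 2, and Ripk1 3, 4 and 4 against 4 each.

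**Figure D4:**
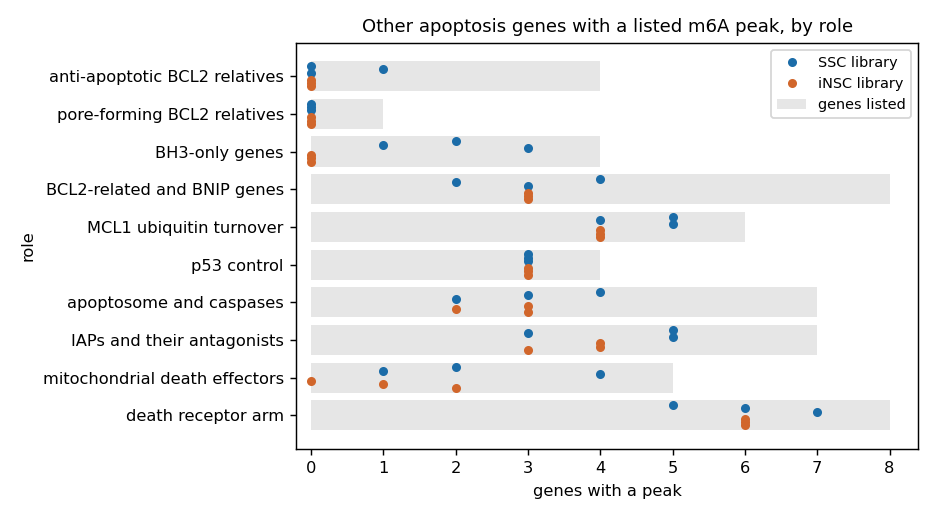
Number of other apoptosis genes with a peak in each library (points, SSC blue and iNSC orange) by role, over grey bars for the number of genes listed. All iNSC points are at 0 for the BH3-only group, and all points are at 3 for p53 control.

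The genes whose peak lengths were most like those of Mcl1 were Sod3, Ptgir, Trarg1, Pax6 and Exog, by the smallest Euclidean distance over the peak bases of the 6 libraries (281, 315, 441, 590 and 606 bases). Ptgir, the prostacyclin receptor gene, had 2187, 3334 and 3334 bases in the iNSC lists, none in the SSC lists, and best peaks at the cap in all 3. Sod3, an extracellular superoxide dismutase gene, had 2200, 3304 and 3210 bases at percentiles of 83.8, 53.8 and 45.4. Pax6, the neural transcription factor, had 2441, 2709 and 2982 bases at percentiles of 59.5, 54.8 and 45.1. Trarg1 and Exog each had a peak in 1 SSC list as well, of 428 and 249 bases.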

How the data were processed

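Six-column peak lists of 6 IP libraries (3 SSC, 3 iNSC) were used. Per the submitters' processing notes the authors used cutadapt 1.9.3, HISAT2 2.0.4 and mm9, and the peak names start with MACS, but caller version and cut-off are not stated in these sources. The deposited score per peak has no stated unit. Exon models were not used. Lists hold no read counts, so depth is unknown and no interval could be given. Coordinates are 1-based on GRCm38, since deposited peak edges coincide with starts of the GRCm38.p6 RefSeq table, not on mm9.

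Each peak was placed in the protein-coding gene it overlapped by at least 1 base (Python 3.11.15, pandas 2.3.3). Where spans overlapped, the gene on its strand was taken, set by over 90% of the peaks in that gene alone or else by RefSeq. This placed 115784 peaks. 976 were ambiguous and 1315 overlapped no such gene. Peaks of 1 gene were merged where they overlapped. Calls were tested on simulated data. No p-values were computed.

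Members and lists were chosen with earlier results of these data known. Named were all 10 members, every called pathway gene, up to 2 genes per role with a peak in all 6 lists, and the 5 genes most like Mcl1. Others (Apaf1, Casp9, Trp53, Bok, Bik, Bmf, Hrk, Pmaip1, Usp13, Trim17, Bcl2l13 and the Bcl2a1 and Bcl2l10 genes) were named after their values were seen. Alternatives were a stricter score, equal list length, 50% overlap, strand, a width of at least 100 bases, 2 of 3 lists, the replicate block and leaving out each library.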

Additional observations from a re-analysis of the deposited data

How the results depend on the processing

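Mcl1 stayed the 1 member called iNSC-only in all 12 alternatives, which says nothing on stability, since its peaks are all capped and wide and no SSC list holds one. Members with a peak per SSC library fell from 6.67 to 3.67 when the better-scoring 50% were kept and to 3.67 at equal list length, and their peaks from 9.67 to 4.33 and 4.33. The difference in members with a peak, SSC minus iNSC, then changed from 1.33 to -1 and -1.67, so no direction is read from it. With 2 of 3 lists, 3 members (Bax, Bak1 and Bad) and 8 other pathway genes were SSC-only, in place of 0 and 2. At equal list length 0 other pathway genes were SSC-only, and with peaks of at least 100 bases 1 was, Tnfrsf10b without Aifm1. Leaving out 1 library gave 0 to 2 SSC-only members (Bad without SSC replicate 1, Bax and Bak1 without SSC replicate 2) and 2 to 7 SSC-only pathway genes, the 7 without SSC replicate 2. In the better-scoring 50% the SSC-only pathway genes were Bnip2 and Btrc and the iNSC-only one was Bcl2l13. Over all genes, SSC-only calls numbered 1488 (963 in the better-scoring 50%, 748 at equal length, 2976 with 2 of 3 lists and 2306 without SSC replicate 2), and iNSC-only calls 285 (431, 742 and, without SSC replicate 1 or 3, 524 and 506). The share of lists with a peak, SSC minus iNSC, gave 110 values over the 10 members. Of these 103 moved by less than the replicate SD or not at all, 7 moved by more and 0 reversed. Bcl2, Bcl2l1, Bcl2l11, Bbc3 and Bid started from 0 and so could not reverse. For Bcl2l2, Bax, Bak1 and Bad the SD was 57.7 points, so the loss of 1 list counted as no move. No stability is read from these counts. With the replicate block, the paired difference was 1.33 members (4, -2 and 2). Same-numbered libraries did not deviate together in peak bases over genes (correlations 0.0105, -0.0173 and 0.0317). Whether they share a culture or a batch was not tested. Depth is not given, so a missing peak is not shown to be absent signal.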

Other observations

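The genes beside Mcl1 on chromosome 3 did not share its pattern. Upstream, Ensa, 24826 bases away, had no peak in any list, and Golph3l, a Golgi phosphoprotein gene, had 4, 2 and 2 peaks in SSCs and 3, 4 and 1 in iNSCs. Downstream, Adamtsl4, 13021 bases away, had 1, 0 and 2 peaks in SSCs and 0, 0 and 1 in iNSCs, and Ecm1, an extracellular matrix gene, had 1 peak in SSC replicate 3. These neighbours were looked at after the Mcl1 values were seen.

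Bcl2l13, a BCL2 relative on the outer mitochondrial membrane, lies next to Bid on chromosome 6 and had 0, 3 and 1 peaks in SSCs and 1, 2 and 1 in iNSCs. SSC replicate 1, which lists the Bid end peak, was the library without a Bcl2l13 peak, while iNSC replicates 2 and 3 listed both.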
